A study of Mus musculus with 9 samples.

Results

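The genes that code for the chains of collagens and laminins were described in B16 cells, a mouse melanoma cell line. All gene symbols written as Col, a number, a and a number, or as Lama, Lamb or Lamc and a digit, were taken, which gave 55 of the 22972 genes in the deposited table. Of these, 44 code for collagen chains and 11 for laminin chains. The cells (genotype WT) were grown on a flexible PDMS film in DMEM with 10% FBS and were harvested on day 3. RNA sequencing gave 9 libraries in 3 groups of 3. CTL cells were not treated, MS cells were under cyclic straining for 72 h, and the cells of the last group received blebbistatin, an inhibitor of myosin, for 72 h at a concentration of 100 ng/mL. The study calls the last group MS + Blebb., a name used here, so that it also includes straining, whereas its sample labels name blebbistatin alone. The labels call the 3 libraries of a group parallel experiments and do not say that they came from separate cultures, so p-values measure the spread between these libraries, which may be technical.

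Collagens are secreted proteins in which chains wind around each other in a triple helix, and the small amino acid glycine must recur at regular steps along each chain for the helix to close. Type IV collagen forms the sheet-like network of basement membranes, and the fibrillar types form the fibers of the dermis and other connective tissue. Laminins are trimers of an alpha, a beta and a gamma chain that carry cells on basement membranes and are bound by integrins and dystroglycan. A collagen or laminin can be assembled only from chains made in the same cell.

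Both families can be told apart in their coding sequence. The stretches below were picked to illustrate this for the most abundant chains of each kind. Each holds 30 codons from the longest coding transcript of the gene in GENCODE M21 (build GRCm38). In the collagen chains the capitals mark glycine codons, and the stretch is the start of the longest uninterrupted run in which 1 codon in 3 is glycine. In the laminin chains the capitals mark cysteine codons, and the stretch is the one with the most of them.
Col4a1, codons 43 to 72: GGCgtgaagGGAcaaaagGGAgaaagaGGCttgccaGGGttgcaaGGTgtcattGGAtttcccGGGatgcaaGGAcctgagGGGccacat
Col4a2, codons 777 to 806: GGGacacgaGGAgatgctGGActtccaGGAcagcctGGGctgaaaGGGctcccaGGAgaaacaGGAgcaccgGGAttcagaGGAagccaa
Col4a5, codons 1249 to 1278: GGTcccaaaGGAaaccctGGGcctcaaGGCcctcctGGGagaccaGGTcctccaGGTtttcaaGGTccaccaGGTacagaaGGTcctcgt
Lamb2, codons 851 to 880: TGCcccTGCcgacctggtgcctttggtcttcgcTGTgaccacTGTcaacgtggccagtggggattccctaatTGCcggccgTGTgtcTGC
Lamc1, codons 387 to 416: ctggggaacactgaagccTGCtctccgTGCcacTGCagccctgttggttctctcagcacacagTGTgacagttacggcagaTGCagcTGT

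Each of the 3 collagen stretches holds 10 glycine codons at even spacing, which follows from how they were picked. The laminin stretches hold 7 cysteine codons in Lamb2 and 6 in Lamc1 with uneven gaps. Over the whole coding sequence, glycine made up between 9.07% and 31.2% of the codons of the 44 collagen chains (median 24.2%) and between 7.05% and 9.39% of those of the 11 laminin chains. Cysteine made up a median of 5.82% of codons in laminin chains and of 1.18% in collagen chains. Lama4 was the laminin chain with the lowest share of cysteine, at 2.59%. The longest glycine run had a median of 58.5 repeats in collagen chains (lowest 23) and did not pass 3 repeats in any laminin chain. The shares of glycine and of cysteine overlapped between the families, and the longest glycine runs did not.

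**Figure D1:**
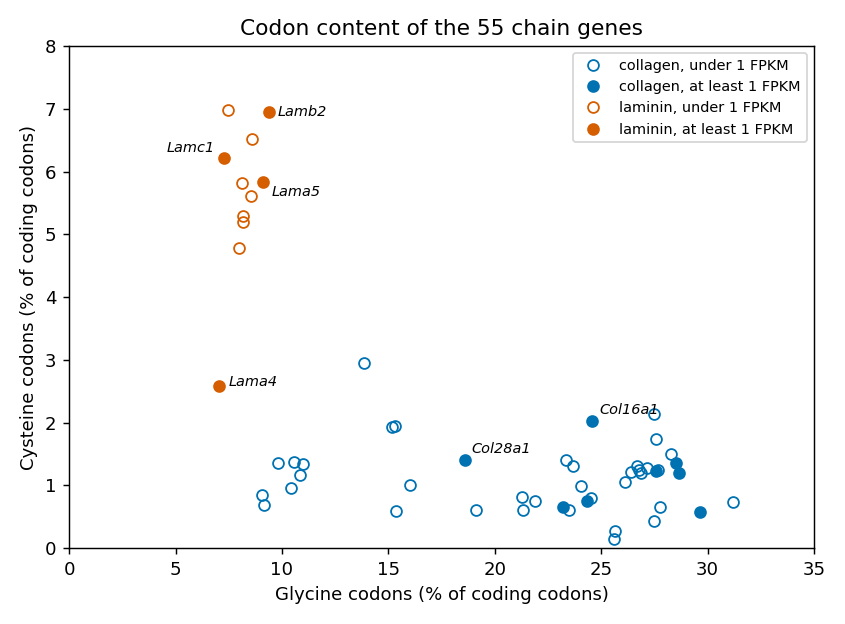
Glycine codons (x axis, % of coding codons) and cysteine codons (y axis, % of coding codons) of the 55 chain genes. Each point is 1 gene, filled where its mean reached 1 FPKM over the 9 libraries. The laminin chains lie at the left, between 7.05% and 9.39% glycine and from 2.59% to 6.98% cysteine, and the collagen chains run from 9.07% to 31.2% glycine at no more than 2.96% cysteine, with filled points in both families.

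The unit of expression was FPKM, in which the fragments on a gene are scaled to the length of the gene and the total of the library, so that levels can be set side by side between genes. A chain was called expressed when its mean over the 9 libraries was at least 1 FPKM. B16 cells expressed 12 of the 55 chains (21.8%), of which 8 were collagen and 4 were laminin chains. Of all genes in the table, 44.0% reached the same minimum. The expressed laminin chains were Lamb2, Lamc1, Lama4 and Lama5, and the expressed collagen chains were Col4a1, Col4a2, Col4a5, Col16a1, Col28a1, Col5a1, Col5a3 and Col9a2. A further 11 chains had a mean from 0.1 to under 1 FPKM, and 24 had a mean above 0 and under 0.1 FPKM. The other 8 of the 55 chains were listed at 0 in all libraries, as were 6489 of the 22972 genes in the table. The 2 chains just inside the minimum were Col5a3 (mean 1.85 FPKM) and Col9a2 (1.43 FPKM), and the 2 just outside were Lamb1 (0.765 FPKM) and Col15a1 (0.690 FPKM). With a minimum of 0.1 FPKM the number of expressed chains was 23, and with a minimum of 5 FPKM it was 5.

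**Figure D2:**
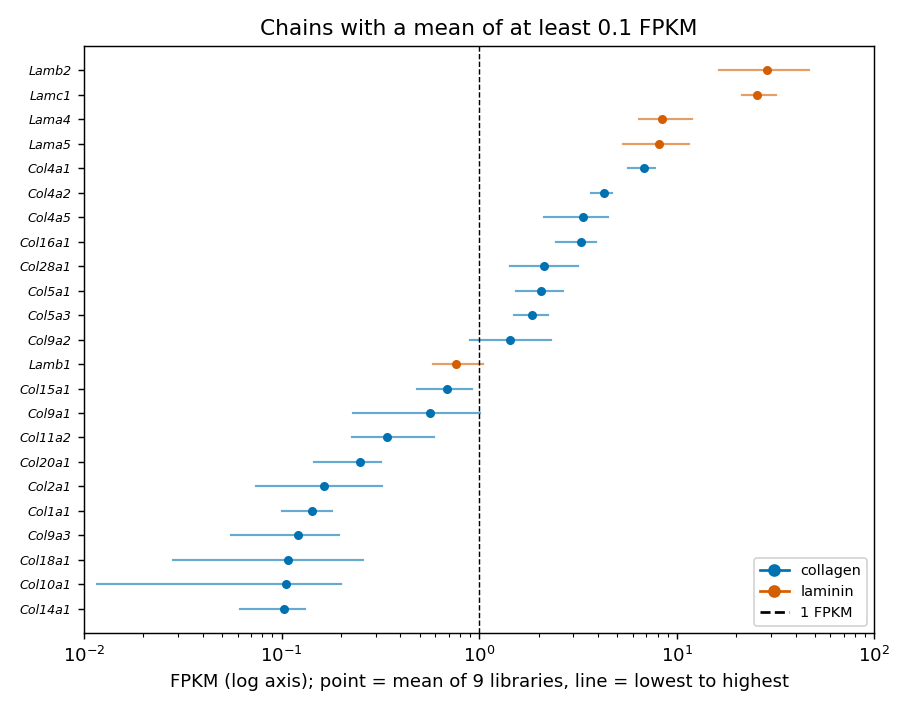
FPKM (x axis, log scale) of the 23 chains with a mean of at least 0.1 FPKM, ordered by mean. The point is the mean of 9 libraries, and the line runs from the lowest to the highest library. The 4 expressed laminin chains head the order, and the dashed line at 1 FPKM leaves 12 chains on its right.

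The libraries were checked for other cells that make these chains. All 7 melanocyte markers were expressed, and their sum lay between 7444 and 12933 FPKM per library. None of the 7 fibroblast markers had a mean of 1 FPKM and their sum was between 0.770 and 1.19 FPKM, with Dcn, Lum and Thy1 listed at 0. None of the 5 endothelial markers had such a mean (sum 0.0225 to 0.116 FPKM, with Cdh5, Kdr and Tek at 0), and none of the 5 keratinocyte markers did (sum 0 to 0.0550 FPKM, with Krt1 and Krt10 at 0). Of 6 macrophage markers, Cd68 alone had a mean of at least 1 FPKM (2.14 FPKM), the sum was between 2.13 and 4.32 FPKM, and the leukocyte gene Ptprc was listed at 0. In bulk RNA such as this, fewer cells of a type and less RNA per cell cannot be told apart.

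In each group 1 library stood apart from the others, namely replicate 1 of CTL, replicate 3 of MS and replicate 2 of MS + Blebb. The summed level of 8 genes of the amino acid and endoplasmic reticulum stress response was 1135, 906 and 1157 FPKM in these 3 libraries and between 426 and 627 FPKM in the other 6. Of the 8 genes, 6 had their 3 highest values there, whereas Slc7a11 was lowest in MS + Blebb. 2 and CTL 1 (1.60 and 1.69 FPKM) and Psat1 did not follow. Atf4, the transcription factor that drives this response, was at 337, 280 and 319 FPKM there and between 126 and 174 FPKM elsewhere. The summed melanocyte markers were also highest in these 3 libraries, with 3 of the 7 markers highest there, Pmel among them (6318, 5106 and 5679 FPKM), whereas Mitf was lowest in MS + Blebb. 2 and CTL 1 (8.51 and 9.50 FPKM). The comparisons of the chains are given below with and without these libraries, but not for every single chain.

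Laminin beta and gamma chains were the most abundant of the chains. Lamb2 codes for laminin beta 2 (chromosome 9, 108479736 to 108490530, plus strand, GRCm38). Its level was 46.7, 21.1 and 22.5 FPKM in CTL replicates 1 to 3, 16.4, 26.1 and 37.4 FPKM in MS replicates 1 to 3, and 24.8, 44.2 and 18.8 FPKM in MS + Blebb. replicates 1 to 3. The highest library of every group was the one that stood apart, and all 3 groups overlapped. CTL had a mean of 30.1 ± 14.4 FPKM, MS of 26.7 ± 10.5 FPKM and MS + Blebb. of 29.3 ± 13.3 FPKM (SD, n = 3 each). Lamb2 varied 2.84-fold between its lowest and highest library, and its SD on the log2 scale (0.52) was at the 90.1st percentile of the 10109 genes tested. The 3 groups held 1.67% of this variance.

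Lamc1 codes for laminin gamma 1 (chromosome 1, 153218922 to 153332786, minus strand), the gamma chain found in most laminins. It was measured (in FPKM) at 23.4, 26.9 and 31.8 in CTL, 23.4, 21.5 and 27.9 in MS and 23.6, 23.0 and 26.8 in MS + Blebb. Its libraries lay closer together than those of Lamb2, with a log2 SD of 0.17, and the libraries that stood apart (23.4, 27.9 and 23.0 FPKM) lay within the range of the other 6. The means were 27.4 ± 4.24, 24.3 ± 3.31 and 24.4 ± 2.03 FPKM in CTL, MS and MS + Blebb. (SD, n = 3). The order of Lamb2 and Lamc1 was not fixed. Their ratio was 2.00, 1.34 and 1.92 in CTL 1, MS 3 and MS + Blebb. 2, and between 0.702 and 1.22 in the other 6 libraries.

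A pair of alpha chains was expressed at similar levels. Lama4, laminin alpha 4 (chromosome 10, 38965515 to 39110188, plus strand), is known from vessels and mesenchymal cells and was measured (in FPKM) at 10.8, 7.11 and 9.10 in CTL, 7.62, 6.71 and 12.0 in MS and 6.42, 9.37 and 6.79 in MS + Blebb. Lama5, laminin alpha 5 (chromosome 2, 180176373 to 180225859, minus strand), is widespread in epithelial and vascular basement membranes and was measured (in FPKM) at 11.1, 8.0 and 7.09 in CTL, 5.36, 7.84 and 7.45 in MS and 7.61, 11.5 and 7.0 in MS + Blebb. The groups overlapped for both genes. Lama4 had its 3 highest values in the libraries that stood apart, whereas Lama5 was high in CTL replicate 1 and MS + Blebb. replicate 2 and not in MS replicate 3. The ratio of Lama4 to Lama5 was between 0.813 and 1.61 over the 9 libraries, so that neither chain was the higher one throughout.

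The other laminin chains were low. Lamb1, laminin beta 1, was between 0.587 and 1.05 FPKM, at a ratio to Lamb2 in the same library between 0.0144 and 0.0478. Lama3 and Lamb3, an alpha and a beta chain known from the epidermis, had means of 0.00571 and 0.00764 FPKM. Lama2, the alpha chain of muscle and nerve, had a mean of 0.00195 FPKM, Lamc3 had a mean of 0.0663 FPKM, and Lama1, the alpha chain of early embryonic basement membranes, was listed at 0. Laminins are numbered by their alpha, beta and gamma chains, and the expressed transcripts cover the chains of laminin 421 and laminin 521. Those of laminin 411 and laminin 511 need Lamb1. Which trimers were assembled was not measured.

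Type IV collagen chains were the most abundant collagen transcripts. Col4a1 was measured (in FPKM) at 6.94, 7.04 and 7.66 in CTL, 5.89, 7.10 and 5.68 in MS and 7.73, 7.24 and 6.21 in MS + Blebb., and Col4a2 at 3.95, 4.63 and 4.61 in CTL, 4.15, 4.44 and 3.69 in MS and 4.72, 4.17 and 4.03 in MS + Blebb. Together these chains form the common network of basement membranes, with more alpha 1 than alpha 2 in each trimer. The level of Col4a1 was higher than that of Col4a2 in all 9 libraries, at a ratio between 1.42 and 1.76 (mean 1.60 ± 0.109, SD over libraries). Both were among the steadier chains. The log2 SD of Col4a2 over the 9 libraries was 0.097, at the 3.21st percentile of the genes tested, with a highest to lowest ratio of 1.28, and that of Col4a1 was 0.14. The groups of both genes overlapped.

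Col4a5, the gene of a type IV chain known from the basement membranes of the kidney and other organs, was measured (in FPKM) at 2.14, 4.51 and 4.06 in CTL, 3.45, 3.70 and 2.69 in MS and 3.44, 2.68 and 3.69 in MS + Blebb. Its 3 lowest values lay in CTL 1, MS 3 and MS + Blebb. 2, the opposite of the order in Lamb2, and the groups overlapped. The chains that join it in known trimers were low or at 0. Col4a6 was listed at 0 in all 9 libraries, Col4a3 had a mean of 0.0129 FPKM and Col4a4 a mean of 0.0810 FPKM.

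The 6 type IV genes lie in head-to-head pairs, with both genes of a pair read outward from a shared start region. On chromosome 8 the annotated starts of Col4a1 (11312826, minus strand) and Col4a2 (11312805, plus strand) are 21 bases apart, so that the transcripts overlap at their first bases in RefSeq and in GENCODE. The overlap is shown because both genes of this pair were expressed. It covers 22 bases, 0.295% of the exon bases of Col4a1 and 0.332% of those of Col4a2. Only reads that lie wholly within it could not be assigned without strand.
Col4a1 and Col4a2 overlap, chr8:11312805-11312826, GRCm38.p6, plus strand: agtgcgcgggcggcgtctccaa
The other pairs did not show the same pattern. The starts of Col4a3 and Col4a4 on chromosome 1 are 72 bases apart, and both genes had means under 0.1 FPKM. Those of Col4a5 and Col4a6 on the X chromosome are 1309 bases apart, and Col4a5 was expressed at a mean of 3.37 FPKM while Col4a6 was listed at 0. Among the 12 expressed chains, Col5a1 was the only one besides this pair with an exon that overlaps an exon of another annotated gene, over 1.17% and 1.33% of its exon bases by 2 noncoding genes on the other strand. Col4a2 overlaps a noncoding antisense gene as well, over 0.65% of its exon bases.

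Of the fibrillar collagens, only type V chains reached 1 FPKM. Col5a1 and Col5a3 code for chains of this minor fibrillar collagen, which is known to regulate the diameter of type I fibrils. Col5a1 was measured (in FPKM) at 1.70, 2.44 and 2.66 in CTL, 1.60, 2.43 and 1.54 in MS and 2.62, 1.53 and 1.91 in MS + Blebb. Col5a3 was measured (in FPKM) at 1.77, 1.71 and 2.23 in CTL, 1.5, 1.73 and 1.73 in MS and 2.16, 2.16 and 1.67 in MS + Blebb. The groups overlapped for both. Col5a2, the third chain of type V, was listed at 0 in 8 of 9 libraries and at 0.00849 FPKM in MS + Blebb. replicate 3. The chains of type I collagen were at means of 0.142 FPKM (Col1a1) and 0.0936 FPKM (Col1a2), that of type III (Col3a1) at 0.00104 FPKM and that of type II (Col2a1) at 0.164 FPKM. An uninterrupted glycine run of at least 300 repeats, the long helix of fibrillar chains, was found in 9 of the 44 collagen genes, and Col5a1 (338 repeats) and Col5a3 (337 repeats) were the 2 of them that were expressed. Of the 35 collagen genes with shorter runs, 6 were expressed, with the longest runs between 28 repeats in Col28a1 and 113 in Col9a2.

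The remaining expressed collagen chains were Col16a1, Col28a1 and Col9a2. Col16a1 codes for a fibril-associated collagen and was measured (in FPKM) at 2.44, 3.67 and 3.89 in CTL, 3.42, 3.13 and 2.71 in MS and 3.67, 3.31 and 3.29 in MS + Blebb. Col28a1 codes for a collagen with von Willebrand factor A domains and was measured (in FPKM) at 2.11, 1.44 and 2.81 in CTL, 2.78, 1.44 and 3.16 in MS and 1.44, 1.55 and 2.40 in MS + Blebb. Both had overlapping groups, and each group of Col28a1 held a library at 1.44 FPKM and one at 2.40 FPKM or above. Col9a2, a chain of the fibril-associated type IX collagen of cartilage, was measured (in FPKM) at 2.31, 1.41 and 0.899 in CTL, 0.969, 1.26 and 1.95 in MS and 1.22, 1.63 and 1.24 in MS + Blebb. It was the only expressed chain with libraries under 1 FPKM (CTL replicate 3 and MS replicate 1), and its 3 highest values lay in the libraries that stood apart. Its partners Col9a1 and Col9a3 had means of 0.566 and 0.121 FPKM. Of the type VI chains, which form beaded microfibrils around many cells, Col6a1 had a mean of 0.00565 FPKM and Col6a2 was listed at 0.

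**Figure D3:**
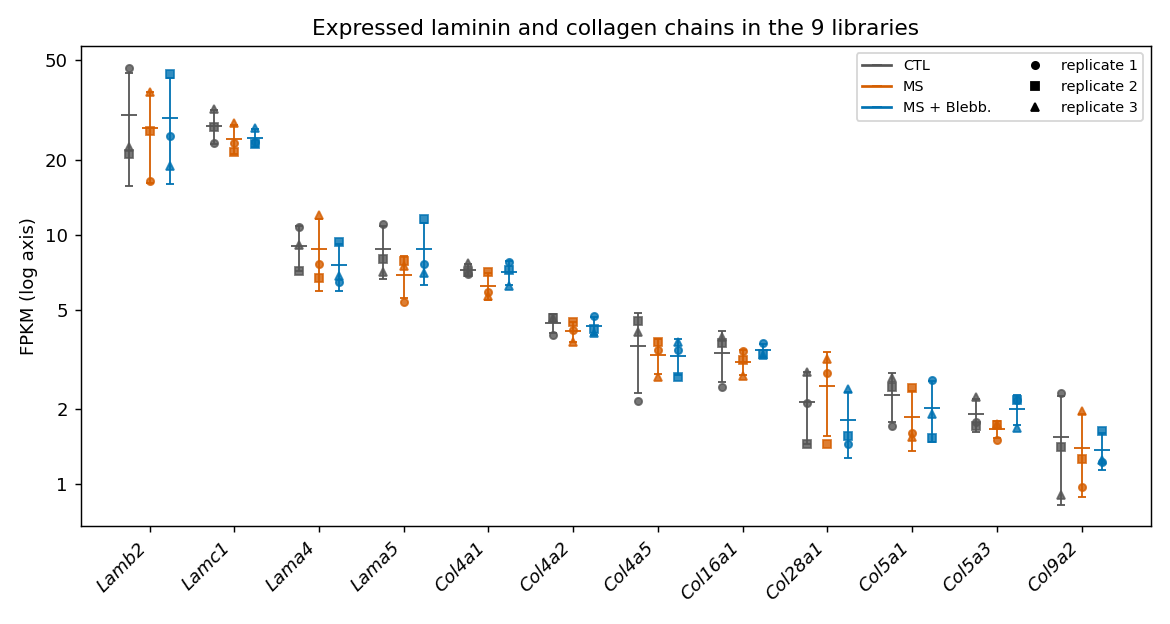
FPKM (y axis, log scale) of the 12 expressed chains in each of the 9 libraries. Symbols mark the replicates, colors mark CTL, MS and MS + Blebb., and the bars show the group mean ± SD (n = 3). The 3 groups overlap for every chain, and Lamb2 spans 16.4 to 46.7 FPKM.

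The summed level differed more between libraries for laminin than for collagen. The 44 collagen chains summed to between 25.4 and 32.3 FPKM per library (median 27.9 FPKM). The 11 laminin chains summed to between 53.4 and 92.8 FPKM (median 63.9 FPKM), with 92.8, 85.8 and 89.1 FPKM in CTL 1, MS 3 and MS + Blebb. 2 and at most 71.6 FPKM in the other 6 libraries. Lamb2 made up between 30.7% and 50.3% of the laminin sum. Of the 12 expressed chains, 3 (Lamb2, Lama4 and Col9a2) had their 3 highest values in exactly these libraries, as did 15.8% of all genes tested, and 1 (Col4a5) had its 3 lowest values there, as did 16.1% of all genes tested. The part of the stress genes and of the melanocyte markers in these levels was not tested. Over all 9 libraries the log2 SD of the 12 chains had a median of 0.24, against 0.23 for the genes tested. The groups held a median of 14.5% of the variance of the 12 chains and of 12.7% over the genes tested. Without any group difference, the mean share held by the groups would be 25%. This is not a median, so the medians above cannot be set directly against it.

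**Figure D4:**
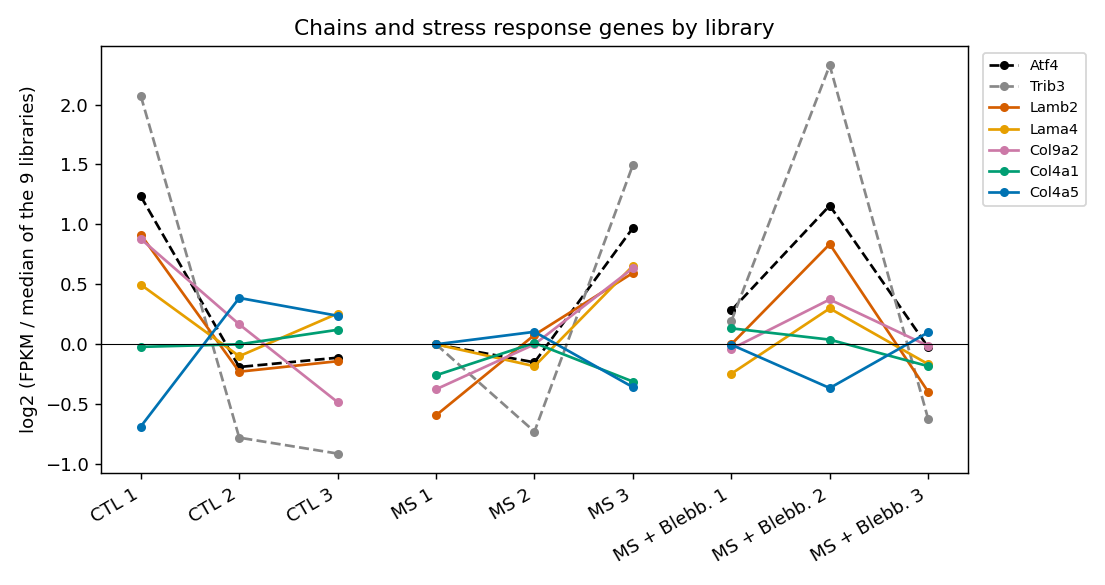
Level of 5 chains (solid lines) and of the stress response genes Atf4 and Trib3 (dashed lines) in the 9 libraries, as log2 of FPKM over the median of the gene (y axis). Lamb2, Lama4 and Col9a2 are highest in CTL 1, MS 3 and MS + Blebb. 2, where Atf4 is at 337, 280 and 319 FPKM, Col4a5 is lowest there, and Col4a1 stays near its median.

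The first question of the design is whether cyclic straining changed the expression of these chains. The 43 chains under the minimum were not tested. In MS against CTL, 0 of the 12 expressed chains had an adjusted p under 0.05 in limma (0% of the 10109 genes tested). An unadjusted p under 0.05 in limma was found for 0 (0.158% of genes tested), and groups without overlap for 0 (3.17% of genes tested). Without any group difference, a share of 0.05 of genes on average would have such an unadjusted p and 0.1 would have groups without overlap. Both shares, here and in the comparisons below, were smaller, so 0 of 12 does not show that the chains were unchanged. The log2 fold change of FPKM + 1 was between -0.30 in Lama5 and 0.14 in Col28a1, with a median of -0.11, against -0.0018 over all genes tested. It was below 0 for 11 of the 12 chains, against 50.5% of genes tested. It was below 0 for 8 of 12 once the dependence of each library on GC content (its GC trend) was removed. The median was then -0.039, against -0.0092 over all genes tested. The median was -0.055 without CTL replicate 3 and -0.16 without CTL replicate 2, against 0.026 and 0.0066 over all genes tested. Without CTL replicate 1 or without MS replicate 1, 8 of 12 were below 0. Their medians were -0.15 and -0.093, against -0.041 and -0.032 over all genes tested. The share of genes tested below 0 is not given with the GC trend removed or single libraries left out, here or in the comparisons below. The 12 chains are rich in G and C, with a median of 58.4% of the transcript against 49.9% for the genes tested and 11 of 12 above that median. The interval of the difference shows how large a change these libraries leave possible. It ran from -0.51 to 0.13 for Col4a1 (log2 fold change -0.19, SE 0.14), from -0.82 to 0.23 for Lama5 (-0.30, SE 0.23) and from -1.08 to 0.78 for Lamb2 (-0.15, SE 0.41; 95% confidence intervals). For 11 of the 12 chains the whole interval lay within 1 on either side of 0, and the exception was Lamb2. Because 1 is added to each FPKM, these intervals understate the possible change in FPKM of the low chains. Of the 12 chains, Lamb2 moved most when single libraries were left out, from -0.42 without MS replicate 3 to 0.21 without CTL replicate 1.

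Without the 3 libraries that stood apart, 2 libraries per group remained and the MS values were below 0 for all 12 chains, against 61.8% of genes tested. Their median was -0.16, against -0.046 over all genes tested. Lamb2 was then at -0.067 (95% confidence interval -0.63 to 0.49) and Col4a1 at -0.16 (-0.60 to 0.28). Lama5 was at -0.19 (-0.67 to 0.30), Lama4 at -0.15, Col9a2 at -0.022 and Col4a5 at -0.21. Lamc1 was the only chain with an unadjusted p under 0.05, which 0.633% of genes tested had. Its log2 fold change was -0.37 (SE 0.15, 95% confidence interval -0.73 to -0.015), with an adjusted p of 1.00 in limma, and over all 9 libraries it was -0.16 (SE 0.15).

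The second question is whether the inhibition of myosin altered the expression of the chains relative to MS cells. This takes the straining of the MS + Blebb. group from the study, since its labels name blebbistatin alone. In MS + Blebb. against MS, 0 of the 12 chains had an adjusted p under 0.05 in limma (0% of genes tested), 0 had an unadjusted p under 0.05 (1.25% of genes tested) and 0 had groups that did not overlap (3.73% of genes tested). The log2 fold changes were between -0.29 in Col28a1 and 0.29 in Lama5, with a median of 0.070, against -0.0059 over all genes tested. Values below 0 were found for 3 of the 12 chains (51% of genes tested), and for 9 of 12 with the GC trend removed. The median was then -0.052, against 0.013 over all genes tested. The median over the 12 chains was 0.023 without MS replicate 1, with 5 of 12 below 0. It was 0.12 without MS replicate 2 and, with the first MS + Blebb. library left out, 0.041. In the same order the medians over all genes tested were 0.016, -0.034 and -0.016. The interval was -0.24 to 0.81 for Lama5, -0.87 to 0.30 for Col28a1, -0.16 to 0.48 for Col4a1 and -0.81 to 1.04 for Lamb2. Without the libraries that stood apart the values lay between -0.10 and 0.16, with Lamb2 at 0.055 (-0.51 to 0.62). Lama5 was then at 0.15 (-0.34 to 0.63), Lama4 at -0.10, Col9a2 at 0.084 and Col4a5 at -0.0031. In that fit 3 of 12 chains were below 0 (52.5% of genes tested) and 0 had an unadjusted p under 0.05 in limma (1.1% of genes tested). The same 3 MS libraries enter both comparisons, so a value above 0 here and one below 0 in MS against CTL are not independent of each other.

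In MS + Blebb. against CTL, which shares its libraries with the other comparisons, 0 of the 12 chains had an adjusted p under 0.05 in limma (0% of genes tested), 0 had an unadjusted p under 0.05 (0.089%) and 0 had groups without overlap (2.08%). The log2 fold changes lay between -0.23 and 0.046 with a median of -0.049, against -0.013 over all genes tested. They were below 0 for 10 of 12 chains (54% of genes tested). Below 0 were 8 of 12 with median-of-ratios factors, 5 of 12 after quantile normalization and 12 of 12 with the GC trend removed. In that order the medians were -0.019, 0.019 and -0.072, against 0.016, 0.010 and 0.0045 over all genes tested. The share of genes tested below 0 is not given under these settings. With 1 library left out, 6 of 12 were below 0 without CTL replicate 3 or without MS + Blebb. replicate 3. Their medians were -0.013 and -0.010, against 0.0075 and -0.0049 over all genes tested. Without CTL replicate 1 the median was -0.093, against -0.051 over all genes tested. For all 12 chains the 95% confidence interval lay within 1 on either side of 0, on a scale that understates changes of low chains. Without the 3 libraries that stood apart, 11 of 12 values were below 0 (64.2% of genes tested), with a median of -0.079 against -0.044 over all genes tested, and 0 had an unadjusted p under 0.05 in limma (0.386% of genes tested).

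**Figure D5:**
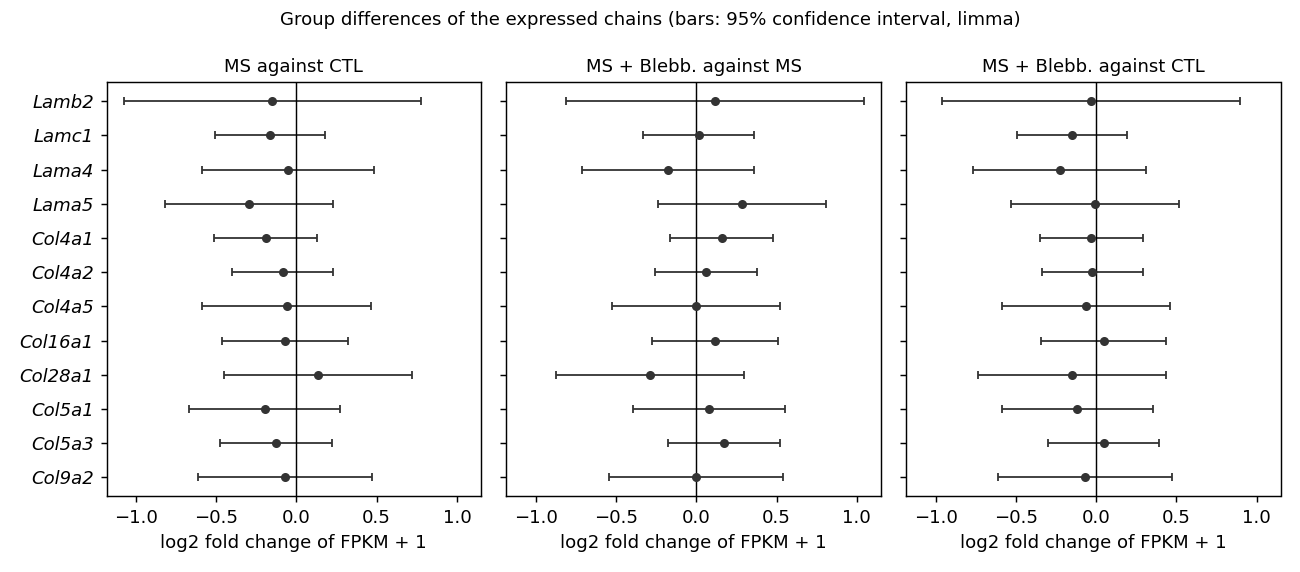
Log2 fold change of FPKM + 1 (x axis) of the 12 expressed chains in MS against CTL, MS + Blebb. against MS and MS + Blebb. against CTL. Points are the limma estimates from 3 libraries per group and bars are 95% confidence intervals. Every bar crosses 0, and those of Lamb2 are the widest, from -1.08 to 0.78 in MS against CTL.

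Genes that act on these chains or with them were also measured. Of 32 genes for the modification and secretion of collagen, 20 were tested. The highest were P4hb, a subunit of the enzyme that hydroxylates proline in collagen (mean 470 FPKM), and Serpinh1, the collagen chaperone of the endoplasmic reticulum (352 FPKM). The cross-linking enzymes Lox and Loxl1 and the type IV cross-linker Pxdn were listed at 0. Of the other Lox family genes, Loxl3 had a mean of 20.2 FPKM, with 14.6 to 24.1 FPKM over the libraries. Loxl2 and Loxl4 had means of 0.319 and 0.128 FPKM. No gene of this list had an adjusted p under 0.05 in limma in any comparison, and 0 had an unadjusted p under 0.05. MS against CTL had a median log2 fold change of -0.11 over the list, against -0.0018 over all genes tested. MS + Blebb. against MS had one of 0.17, against -0.0059 over all genes tested. Both comparisons share the MS libraries, so these medians are not independent of each other. Values with the GC trend removed or with libraries left out are not given for this list or those below.

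Of 17 further basement membrane genes, 7 were tested, led by Sparc, a collagen-binding matrix protein (mean 339 FPKM), and Fbln1, a fibulin (49.4 FPKM). None had an adjusted p under 0.05 in limma. Tinagl1, a secreted basement membrane protein, was the only gene of the list with an unadjusted p under 0.05 in limma. It had this in MS + Blebb. against MS, as did 1.25% of genes tested. It was measured (in FPKM) at 48.5, 64.8 and 29.4 in CTL, 25.1, 43.9 and 39.4 in MS and 53.8, 70.4 and 64.9 in MS + Blebb. All MS + Blebb. libraries were above all MS libraries, and both groups overlapped CTL. MS + Blebb. and MS did not overlap for 3.73% of genes tested. The log2 fold change of MS + Blebb. against MS was 0.81 (SE 0.29), with an adjusted p of 0.897 in limma, which did not pass. Over the 7 genes the median log2 fold change was 0.15 for this comparison and -0.13 for MS against CTL. Over all genes tested these medians were -0.0059 and -0.0018, and both comparisons share the MS libraries.

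Of 16 receptors of collagen and laminin, 9 were tested. Rpsa, which codes for a ribosomal protein also described as a laminin receptor, had the highest level (mean 1587 FPKM), followed by Dag1, the gene of dystroglycan (91.9 FPKM). No receptor had an adjusted p under 0.05 in limma in any of the 3 comparisons and 0 had an unadjusted p under 0.05. Over the list the median log2 fold change was 0.0094 for MS against CTL and 0.084 for MS + Blebb. against MS. Over all genes tested these medians were -0.0018 and -0.0059.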

How the data were processed

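RNA was extracted with TRIzol, libraries were made with the SMARTER mRNA-Seq kit and sequenced on an Illumina platform, and the deposited files hold an FPKM value for each gene in each library, made by the authors. The submitters' processing notes name GRCm38 (mm10). The aligner, the counting program and the annotation are not given in the sources used here. In CTL 1 the value column carries a sample name as header and was read as FPKM. Column sums lay between 439939 and 484093 FPKM. The depth is unknown, since ratios of low values shared no step (bins of 0.02 in log2 held at most 1.61% of them), so no counting intervals are given. None of 36 library pairs was identical.

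Values were analyzed as log2(FPKM + 1), a scale that understates changes of low genes. Genes reaching a mean of 1 FPKM (10109) were tested in limma 3.58.1 (R 4.3.3; lmFit on 3 groups, eBayes with a trend), two-sided, at a threshold of 0.05 after Benjamini-Hochberg adjustment across the 10109 genes. The fit was tested on simulated data. Each expressed chain, the 2 chains on each side of the minimum, the 2 highest genes of each of the 3 companion lists (collagen modification, basement membrane, receptors) and any of their genes with an unadjusted p under 0.05 were named, and other chains were named in groups. Beyond this rule, companion and marker genes listed at 0, Loxl2, Loxl3, Loxl4, Cd68, Pmel, Mitf and the stress genes were named after their values were seen. The members and lists were chosen with earlier results of these data known. Coordinates, coding sequence and GC content came from GENCODE M21 by gene symbol (all 55 chains, and 9663 of the genes tested), and the start of Col4a1 and Col4a2 from RefSeq (GRCm38.p6). Plots were drawn with matplotlib 3.10.9. Alternatives were a pseudocount of 0.1, no minimum or 5 FPKM, quantile normalization, median-of-ratios factors, only the groups compared, no trend, a replicate block, removal of the GC trend (loess, span 0.5), and libraries left out.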

Additional observations from a re-analysis of the deposited data

How the results depend on the processing

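The number of chains with an adjusted p under 0.05 was 0 in every comparison under every alternative run. The number with an unadjusted p under 0.05 was 0 as well, except for 1 chain (Lamc1) in MS against CTL without CTL 1, MS 3 and MS + Blebb. 2. The number of expressed chains was 23 at a minimum of 0.1 FPKM and 5 at 5 FPKM. Correlations of same-numbered deviations ran from -0.78 to 0.84. The libraries that stood apart carry different replicate numbers, so these correlations cannot settle whether the numbers pair the libraries. With the replicate number as a block, 0 chains were called. The directions of single chains are not firm. In the first 2 comparisons (MS with CTL, MS + Blebb. with MS), 13 of the 120 values of single chains that a setting could move turned. The filters, the fit without a trend, the fit of only the groups compared and the block leave a fold change as it is and are not counted. In MS against CTL, removal of the GC trend, with or without the block, gave 0.029 for Col4a2, 0.046 for Col16a1 and 0.055 for Col9a2, and leaving out the 3 libraries gave -0.0071 for Col28a1. In MS + Blebb. against MS, removal of the GC trend, with or without the block, gave -0.028 for Lamb2, -0.057 for Lamc1, -0.099 for Col4a2, -0.047 for Col16a1, -0.058 for Col5a1 and -0.17 for Col9a2, quantile normalization gave -0.0055 for Lamc1 and 0.15 for Col4a5, and median-of-ratios factors gave 0.020 for Col4a5. The cause was not tested.

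With each library left out in turn, 26 of the 144 values that the library could move turned, in 12 of 24 results. In MS against CTL the log2 fold change ranged from -0.23 (without CTL replicate 1) to 0.024 (CTL replicate 3) for Col16a1, -0.029 (CTL replicate 2) to 0.37 (MS replicate 2) for Col28a1, -0.31 (CTL replicate 1) to 0.094 (CTL replicate 2) for Col4a5, -0.26 (CTL replicate 3) to 0.14 (CTL replicate 1) for Col9a2, -0.28 (MS replicate 3) to 0.099 (MS replicate 2) for Lama4, and -0.42 (MS replicate 3) to 0.21 (CTL replicate 1) for Lamb2. In MS + Blebb. against MS it ranged from -0.11 (MS replicate 3) to 0.10 (MS + Blebb. replicate 2) for Col4a5, -0.059 (MS + Blebb. replicate 1) to 0.22 (MS replicate 2) for Col5a1, -0.13 (MS replicate 1) to 0.16 (MS replicate 3) for Col9a2, -0.33 (MS replicate 2) to 0.049 (MS replicate 3) for Lama4, -0.22 (MS + Blebb. replicate 2) to 0.39 (MS replicate 3) for Lamb2, and -0.065 (MS replicate 2) to 0.12 (MS replicate 3) for Lamc1. The lowest p of a chain in these fits was 0.067. The depth is unknown, so the counting error of low chains could not be given.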
